A study of Mus musculus with 4 samples.

Results

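The apoptosis signal-regulating kinases (ASK) are stress-activated protein kinases at the top of the MAP kinase cascades that end in JNK and p38. The 10 genes followed here were Map3k5 (ASK1), Map3k6 (ASK2) and Map3k15 (ASK3), the MAP kinase kinases Map2k3, Map2k4, Map2k6 and Map2k7, the terminal kinases Mapk8 (JNK1) and Mapk14 (p38α), and Txn1 (thioredoxin), out of 23337 genes listed in each heart library. They were taken by name, and the set was selected on the measured 6-month level of Map3k6, which was far higher in PIMT-deleted than in control hearts, so the 6-month values of Map3k6 below are a description and were not tested. All 10 genes were listed in the 4 libraries and had at least 10 reads in every one of them.

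PIMT (gene Tgs1) is an RNA cap methyltransferase that binds the coactivator NCOA6. The study compared hearts of csPIMT-/- mice, in which a loxP-flanked stretch of Tgs1 was removed by a Cre recombinase driven by the α-myosin heavy chain promoter and therefore in cardiomyocytes, with hearts of PIMT fl/fl mice, which carry the same floxed alleles, no Cre, and are labelled as wild type. Both genotypes were on C57BL6/J and were sampled at 2 months and at 6 months, and for each of the 4 groups the RNA of 5 hearts from males and females was pooled into 1 mRNA library. No group had a replicate library, so the spread between animals could not be measured, and the 95% intervals on the ratios below (Clopper-Pearson, from reads) cover counting error only. The RNA came from heart tissue, not isolated cardiomyocytes, so fewer cardiomyocytes and less RNA per cardiomyocyte cannot be told apart in these values. The summed atrial markers of the 2-month control, given below, were far below those of the other libraries. Whether the same parts of each heart were taken was not tested.

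In the resting cell ASK1 is held inactive by reduced thioredoxin, which lets go when it is oxidised. Active ASK kinases phosphorylate MKK4 and MKK7, which activate the JNKs, and MKK3 and MKK6, which activate p38. In the heart this route is known for its place in the response of cardiomyocytes to oxidative stress, pressure load and cell death signals, and ASK2 is best known as a partner that forms a complex with ASK1.

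At 6 months Map3k6 and Mapk8 had the highest and the lowest ratio of csPIMT-/- to control in the group, and their transcripts also lie at the 2 ends in base composition, from 59.5% G or C in Map3k6 to 40.1% in Mapk8. The stretches of both mRNAs amplified by the study's RT-qPCR primers are shown because they let this contrast be seen in the letters themselves, with the primer sites in capitals. Both are coding, are written 5′ to 3′ along the GENCODE transcript of build GRCm38, and each primer matched its transcript once.
Map3k6, exon 1 of 29, chr4:133241220-133241385, + strand, 166 bases, 72.3% G or C: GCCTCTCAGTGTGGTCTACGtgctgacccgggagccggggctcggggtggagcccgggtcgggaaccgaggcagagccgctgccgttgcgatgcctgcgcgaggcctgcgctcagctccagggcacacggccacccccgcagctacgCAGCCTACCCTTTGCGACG
Mapk8, exons 2 to 3 of 12, spanning chr14:33408172-33410974, - strand, 125 bases, 40.0% G or C: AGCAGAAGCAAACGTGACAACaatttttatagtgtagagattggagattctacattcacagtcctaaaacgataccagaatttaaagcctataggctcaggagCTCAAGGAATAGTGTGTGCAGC
The promoters of the same genes are given as the 250 bases before the outermost RefSeq start (GRCm38.p6), shown because these genes were furthest apart in ratio at 6 months, with matches to the searched motifs in capitals.
Map3k6 promoter, chr4:133240568-133240817, + strand, 62.8% G or C: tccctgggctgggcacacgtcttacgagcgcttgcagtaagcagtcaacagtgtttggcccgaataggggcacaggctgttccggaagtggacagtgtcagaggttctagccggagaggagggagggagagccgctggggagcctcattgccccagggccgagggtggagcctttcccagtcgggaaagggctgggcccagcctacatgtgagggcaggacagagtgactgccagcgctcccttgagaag
Mapk8 promoter, chr14:33447159-33447408, - strand, 79.2% G or C: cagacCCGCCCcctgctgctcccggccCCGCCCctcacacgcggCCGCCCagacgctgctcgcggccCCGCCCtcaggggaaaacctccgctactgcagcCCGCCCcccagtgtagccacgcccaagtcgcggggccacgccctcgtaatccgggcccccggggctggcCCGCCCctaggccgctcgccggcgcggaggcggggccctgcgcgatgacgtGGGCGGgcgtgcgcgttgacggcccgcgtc
The motifs searched on both strands were TGANTCA (the AP-1 site), TGACGTCA (the cyclic AMP response element), GGGCGG (the GC box), CCAAT and TATAAA, none of which contains another. The Map3k6 promoter held none of them. The Mapk8 window printed held 7 copies of GGGCGG, which is present in 32.7% of all 32851 RefSeq promoter windows of this length, and no copy of the other 4 motifs. RefSeq also gives Mapk8 an internal start, whose window (chr14:33411025-33411274, - strand, not printed) is 33.2% G or C and held none of the motifs, so the Mapk8 windows lie on both sides of Map3k6 in G and C. TGANTCA is present in 6.75% of all windows and was found in 1 window each of Map2k6 and Map2k7 among the 15 windows of the 9 genes with a RefSeq entry. Map3k15 had no entry in the table used.

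Sequencing placed 29823073 to 40705783 reads on genes in each library. Tgs1, the targeted gene (chr4:3574875-3616619, + strand), stood at 580 normalized counts in the control and 160 in the csPIMT-/- library at 2 months, and at 816 and 162 at 6 months. It was lower in both csPIMT-/- libraries, to 0.276 of control at 2 months (95% interval 0.227 to 0.334) and 0.199 at 6 months (0.167 to 0.236). These are counts over the whole gene, not over the floxed exons, and the Tgs1 transcript is itself poor in G and C (41.9%), which moved with the ratios as described next. With the GC trend of all genes subtracted, Tgs1 was at 0.639 and 0.525 of control.

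Across all genes, transcripts richer in G and C had higher ratios of csPIMT-/- to control, with a Spearman correlation of 0.594 over 13748 genes at 2 months and 0.62 over 13787 genes at 6 months, while the ratio of the control libraries, 6 over 2 months, gave -0.27. Over the 10 stress kinase genes the same correlation was 0.842 at 2 months, 0.976 at 6 months and -0.406 between the controls, a description of 10 genes measured in the same libraries. The ratios of the 10 genes are therefore also given with the GC trend of all genes subtracted, and the part of GC content in the results was not tested.

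**Figure D1:**
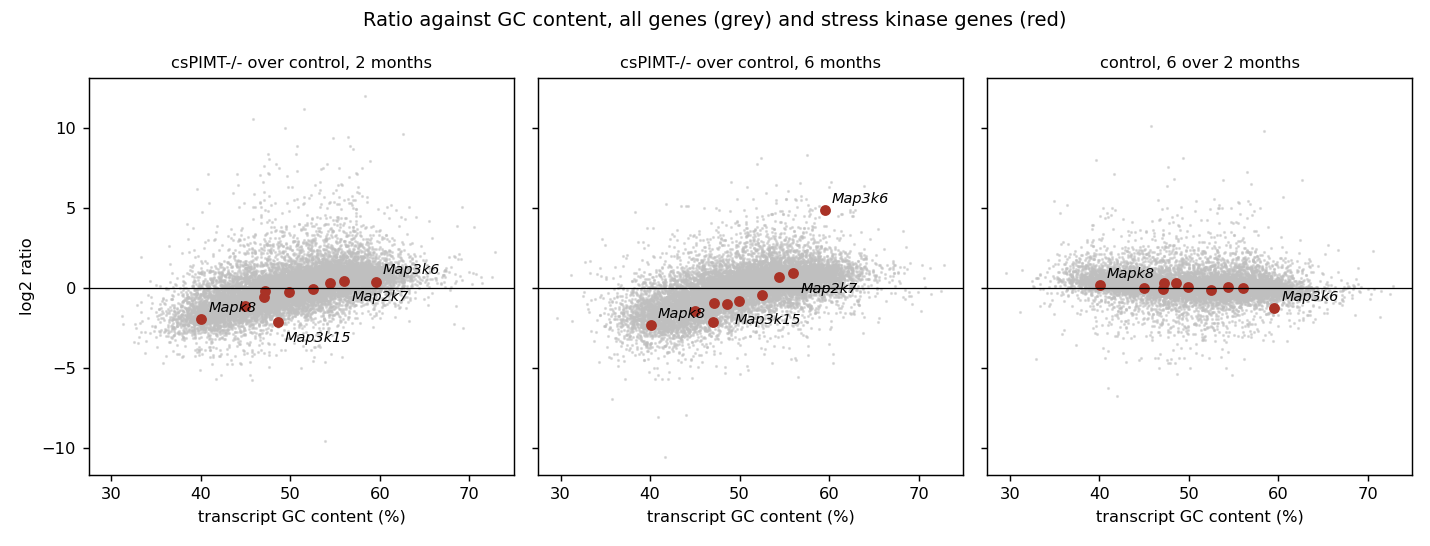
Log2 ratio (vertical axes) against the GC content of the transcript in percent (horizontal axes), for csPIMT-/- over control at 2 months (left), at 6 months (centre) and for the controls, 6 over 2 months (right), each from 2 pooled libraries. Grey points are all genes compared and red points the 10 stress kinase genes; the red points climb from Mapk8 at 40.1% G or C in the left and centre panels, and Map3k6 at 59.5% stands 4.84 log2 units up at 6 months, above the grey cloud at its GC content.

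Cell type markers also differed between the hearts and were not balanced across the groups. The 7 cardiomyocyte markers summed to between 1024914 and 1366688 normalized counts in the 4 libraries, and none was at 0. The 5 atrial markers summed to 3296 in the 2-month control, 134051 in the 2-month csPIMT-/-, 53486 in the 6-month control and 29482 in the 6-month csPIMT-/- library. The summed atrial level of the 2-month control was thus far below that of the other libraries. Kcnj3, 1 of the 5, was instead lowest in the 6-month csPIMT-/- library (354, against 736 in the 2-month control). Summed levels ranged from 1911 to 10295 for 7 fat markers (Retn at 0 in the 2-month control, Elovl3 in the 6-month control), from 22.0 to 1170 for 6 lung markers (4 at 0 in the 2-month control, with Sftpc, and 2 at 0 in the 6-month control, with Sftpb), from 142683 to 277235 for 7 fibroblast markers, from 46732 to 64848 for 6 endothelial markers and from 6156 to 25876 for 6 leukocyte markers. Summed fat and lung markers were highest in the 2-month csPIMT-/- library, and summed fibroblast and endothelial markers in the 2-month control. Single markers went other ways. The lung marker Ager was lowest in the 2-month csPIMT-/- library (9.86), and Cidea was highest in the 6-month one. Endothelial Tie1, Cldn5 and Egfl7 and fibroblast Pdgfra and Dcn were also highest in the 6-month csPIMT-/- library. Fibroblast Col1a2 and Tcf21 were highest in the 2-month csPIMT-/- library. Summed leukocyte markers were highest in the 6-month csPIMT-/- library, but Ptprc, 1 of the 6, was highest in the 6-month control (948). Against its own 6-month control, the 6-month csPIMT-/- library, where Map3k6 was highest, was higher in summed fibroblast (203145 against 142683), endothelial (57185 against 46732), leukocyte (25876 against 15992), fat (3472 against 2488) and lung markers (97.8 against 22.0) and lower in atrial and cardiomyocyte markers. The fat sum at 6 months was carried by Cidea (2600 against 1015), while 5 of the 6 fat markers compared were lower in csPIMT-/-. Of 5 leukocyte markers compared 1 was lower, Ptprc (420 against 948). Of 6 endothelial markers 1 was lower, Kdr (6164 against 11015). The lung sum was carried by Ager (80.1 against 13.2), the 1 lung marker compared, while Scgb1a1 was lower (1.04 against 6.16) on few reads. Of 7 cardiomyocyte markers 4 were lower, while Tnni3, Actc1 and Myl3 were higher, at 1.18, 1.37 and 1.43 times control. The part of the cell type markers in the ratios below was not tested.

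Among the ASK genes, Map3k6 was the one gene of the 10 that was more than 2-fold higher in csPIMT-/- hearts. Map3k6 encodes ASK2 and lies at chr4:133240818-133252929 on the + strand, with 29 exons and no overlapping gene. It stood at 798 normalized counts in the 2-month control, 1037 in the 2-month csPIMT-/-, 326 in the 6-month control and 9382 in the 6-month csPIMT-/- library, from 922, 841, 371 and 9018 reads. Both csPIMT-/- libraries were above both controls, but the 2-month pair lay close together and the control itself was lower at 6 months. The ratio was 1.30 at 2 months (1.18 to 1.43) and 28.8 at 6 months (25.9 to 32.0), which ranked 13 of the 12592 genes with at least 100 reads at 6 months and 4365 of 12374 at 2 months. Subtracting the GC trend left 0.786 at 2 months, below 1, and 17 at 6 months. Within a genotype, Map3k6 at 6 months was 0.409 of its 2-month level in controls (0.362 to 0.462) and 9.05 times its 2-month level in csPIMT-/- hearts (8.43 to 9.72). The study's own ratios for Map3k6, by RNA-seq and by RT-qPCR, were several-fold smaller than 28.8 at 6 months. At 2 months both were larger than 1.30. The source of these differences was not tested.

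The size of the Map3k6 difference depended on which control it was set against. Against the 2-month control the 6-month csPIMT-/- library was 11.8-fold higher, and against both controls summed 16.6-fold. Against the 6-month control the 2-month csPIMT-/- library was 3.18-fold higher. The 2-month ratio was below 1 only with the GC trend subtracted. The 6-month ratio was above 1 under every scaling and control tried. Each of these used the 6-month csPIMT-/- library on which Map3k6 was chosen, so nothing is read from that. No 50-base window of the Map3k6 transcript, the read length of these libraries, occurs in an annotated transcript of another gene.

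Map3k5 and Map3k15, the other ASK genes, were both lower in the csPIMT-/- libraries. Map3k5 encodes ASK1, the founding member (chr10:19934472-20142753, + strand). It stood at 2990 normalized counts in the 2-month control, 2518 in the 2-month csPIMT-/-, 3092 in the 6-month control and 1743 in the 6-month csPIMT-/- library. The controls differed little and both csPIMT-/- libraries were below them, the older one further. Its ratio was 0.842 at 2 months (0.797 to 0.890) and 0.564 at 6 months (0.531 to 0.597), and subtraction of the GC trend left 0.881 and 0.568.

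Map3k15 encodes ASK3, a kinase responsive to osmotic stress (chrX:159988433-160123351, + strand), and was the lowest of the group by far. It had 67, 10, 80 and 33 reads, or 58.0 normalized counts in the 2-month control, 12.3 in the 2-month csPIMT-/-, 70.4 in the 6-month control and 34.3 in the 6-month csPIMT-/- library. Both csPIMT-/- libraries were below both controls, on few reads. The ratio was 0.213 at 2 months (0.0975 to 0.416) and 0.488 at 6 months (0.315 to 0.741), and at 6 months the interval includes ratios on both sides of 2-fold. Subtraction of the GC trend gave 0.252 and 0.571, the latter within 2-fold. Map3k15 overlaps Pdha1, a subunit of pyruvate dehydrogenase on the other strand, which itself stood at 37576, 16180, 48557 and 15449 normalized counts in the same order (0.431 and 0.318 of control). The strand setting of the read counting is not given in the sources used here, and without strand the reads of the overlapping stretch cannot be told apart. The part of Pdha1 in the Map3k15 values was not tested.

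Levels per length put the ASK genes in a different order in the last library. On the scale of normalized counts per kilobase of transcript, Map3k5, Map3k6 and Map3k15 stood at 549, 184 and 13.3 in the 2-month control, at 462, 239 and 2.84 in the 2-month csPIMT-/-, at 567, 75.3 and 16.2 in the 6-month control and at 320, 2160 and 7.90 in the 6-month csPIMT-/- library. Map3k5 led in the first 3 libraries and Map3k6 in the 6-month csPIMT-/- library, where it was also the highest of all 10 genes. As a share of the reads on the 3 ASK genes, Map3k6 took 20.7% in the 2-month control (19.6 to 22.0), 29.1% in the 2-month csPIMT-/- (27.4 to 30.8), 9.35% in the 6-month control (8.46 to 10.3) and 84.1% in the 6-month csPIMT-/- library (83.4 to 84.8).

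**Figure D2:**
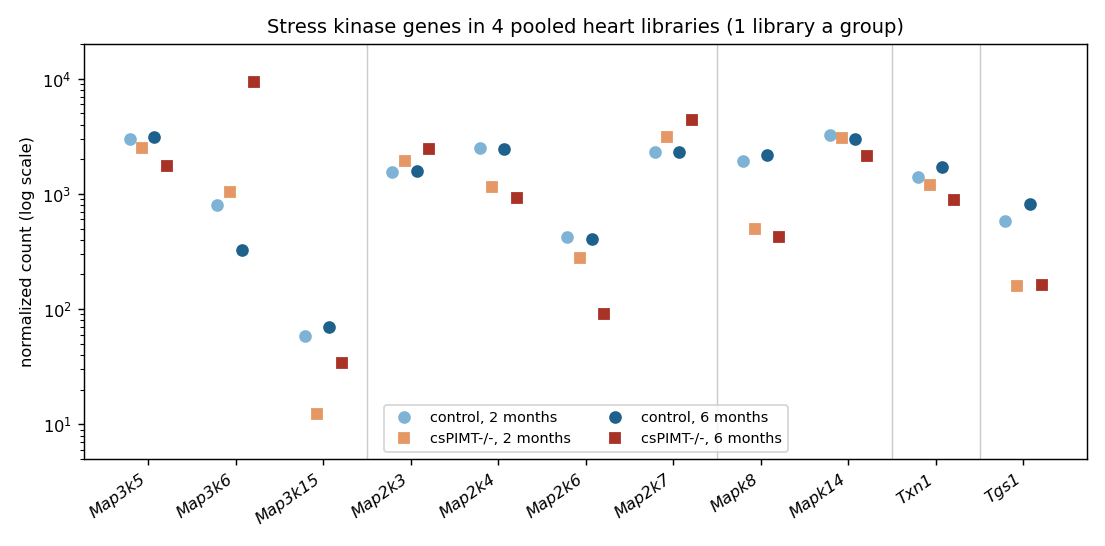
Normalized counts (vertical axis, log scale) of the 10 stress kinase genes and Tgs1 in the 4 pooled libraries, 1 point a library, circles for control and squares for csPIMT-/-. Map3k6 reaches 9382 in the 6-month csPIMT-/- library against 326 in its control, while Mapk8 and Map2k4 lie lower in both csPIMT-/- libraries than in both controls.

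The kinases upstream of JNK differed in opposite directions. Map2k4 (MKK4, chr11:65688243-65788297, - strand), which can phosphorylate both JNK and p38, stood at 2526 normalized counts in the 2-month control, 1155 in the 2-month csPIMT-/-, 2457 in the 6-month control and 914 in the 6-month csPIMT-/- library. Both csPIMT-/- libraries were below both controls, at 0.457 of control at 2 months (0.424 to 0.492) and 0.372 at 6 months (0.345 to 0.402), or 0.779 and 0.704 with the GC trend subtracted. Map2k7 (MKK7, chr8:4238740-4247897, + strand), the activator specific to JNK, stood at 2301, 3122, 2295 and 4393 in the same order. Both csPIMT-/- libraries were above both controls, at 1.36 (1.28 to 1.43) and 1.91 (1.82 to 2.01) times control, but with the GC trend subtracted Map2k7 was at 0.883 at 2 months and 1.23 at 6 months, on opposite sides of 1. Map2k7 shares 37.4% of its 50-base windows with Gm49320, an overlapping annotated transcript on the same strand that is not listed in the files.

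The kinases upstream of p38 were likewise unequal. Map2k3 (MKK3, chr11:60932033-60952811, + strand) stood at 1550 normalized counts in the 2-month control, 1933 in the 2-month csPIMT-/-, 1585 in the 6-month control and 2467 in the 6-month csPIMT-/- library. Map2k6 (MKK6, chr11:110399122-110525522, + strand) stood at 423, 277, 405 and 91.6 in the same order. Map2k3 was thus higher and Map2k6 lower in both csPIMT-/- libraries than in both controls, and the 6-month csPIMT-/- library was the extreme one for both. Map2k3 was at 1.25 (1.16 to 1.34) and 1.56 (1.46 to 1.66) times control at 2 and 6 months, and Map2k6 at 0.656 (0.557 to 0.769) and 0.226 (0.178 to 0.285). The GC trend subtracted, Map2k3 was at 0.882 and 1.06, while Map2k6 was at 0.902 and 0.320. Map2k6 at 6 months was the one lower value of the group that stayed past 2-fold at that age after the subtraction.

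The split of reads within each pair differed in the same way. Map2k7 took 47.7% of the reads on Map2k4 and Map2k7 in the 2-month control, 73.0% in the 2-month csPIMT-/-, 48.3% in the 6-month control and 82.8% in the 6-month csPIMT-/- library. Map2k3 took 78.6%, 87.5%, 79.7% and 96.4% of the reads on Map2k3 and Map2k6 in the same order. In both pairs the controls of the 2 ages had overlapping intervals, and the gene richer in G and C took the larger share in the csPIMT-/- libraries.

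**Figure D3:**
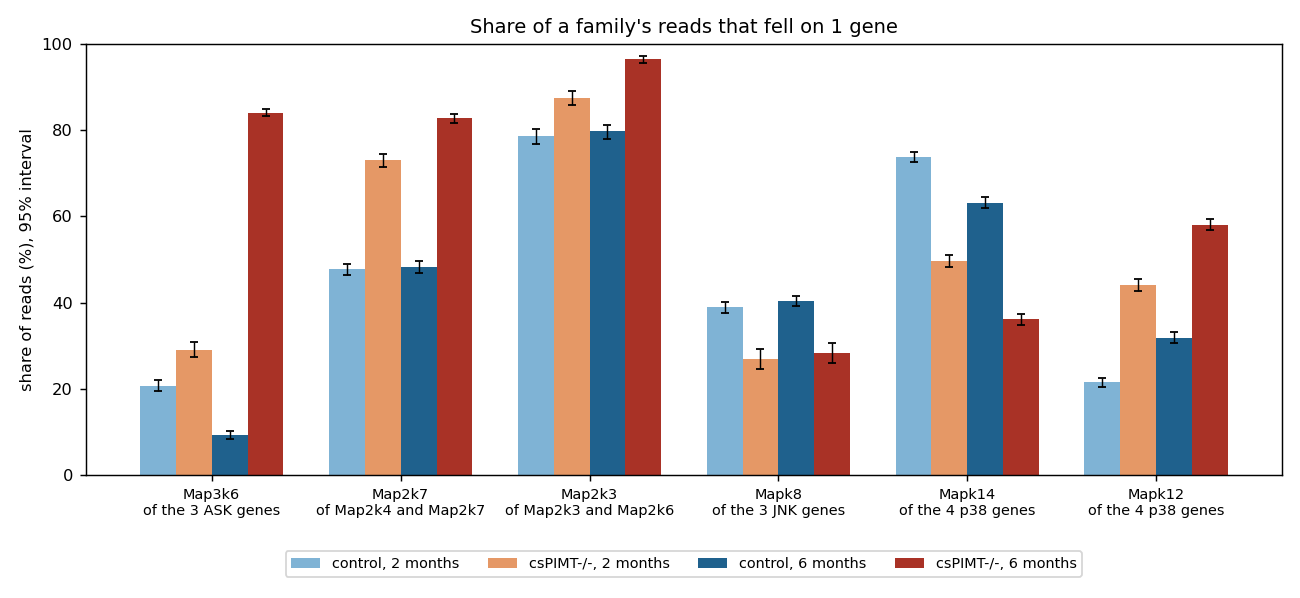
Percent of the reads of a gene family (vertical axis) that fell on the named gene in each of the 4 pooled libraries, with 95% Clopper-Pearson intervals that cover counting error only. Map3k6 goes from 9.35% of ASK reads in the 6-month control to 84.1% in the 6-month csPIMT-/- library, and Mapk14 from 63.2% to 36.1% of p38 reads.

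Of the terminal kinases, Mapk8 was the gene with the lowest ratio to control at 6 months in this group. Mapk8 encodes JNK1, which phosphorylates c-Jun (chr14:33377898-33447158, - strand). It stood at 1934 normalized counts in the 2-month control, 496 in the 2-month csPIMT-/-, 2187 in the 6-month control and 427 in the 6-month csPIMT-/- library. The controls were several times above both csPIMT-/- libraries, which lay close together. The ratio was 0.256 at 2 months (0.230 to 0.285) and 0.195 at 6 months (0.175 to 0.217), at percentiles 5.42 and 4.38 of all genes with at least 100 reads. With the GC trend subtracted it was 0.707 and 0.592, so that less than 2-fold was left at either age.

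Mapk14, which encodes p38α, the main p38 kinase of most cells (chr17:28691329-28748406, + strand), differed less. It stood at 3256 normalized counts in the 2-month control, 3045 in the 2-month csPIMT-/-, 3000 in the 6-month control and 2144 in the 6-month csPIMT-/- library. The 2-month csPIMT-/- value lay between the controls, and the 6-month csPIMT-/- value below both. The ratio was 0.935 (0.889 to 0.984) and 0.715 (0.676 to 0.755), and 0.765 and 0.549 with the GC trend subtracted.

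Txn1, the redox protein that restrains ASK1 (chr4:57943373-57956411, - strand), was lower mainly at 6 months. It stood at 1393 normalized counts in the 2-month control, 1203 in the 2-month csPIMT-/-, 1704 in the 6-month control and 881 in the 6-month csPIMT-/- library. Both csPIMT-/- libraries were below both controls, and the controls differed from each other by 1.22-fold (1.14 to 1.31). The ratio was 0.864 at 2 months (0.797 to 0.936) and 0.517 at 6 months (0.477 to 0.561), just short of 2-fold, and with the GC trend subtracted it was 1.18, on the other side of 1, and 0.720. Txn1 shares 2.5% of its 50-base windows with the pseudogene Txn-ps1.

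Counted together, 3 of the 10 genes (Map3k15, Map2k4 and Mapk8) were lower by more than 2-fold in csPIMT-/- hearts at 2 months and 0 higher by that much, where 22.5% of the 15152 genes compared were lower and 17.3% higher by that much. At 6 months 4 (Map3k15, Map2k4, Map2k6 and Mapk8) were more than 2-fold lower and 1 (Map3k6) higher, where 24.9% of 15218 genes were lower and 16.9% higher. The rule that proposed these genes used the 6-month contrast, so nothing is read from the 6-month count. The median log2 ratio of the 10 was -0.23 at 2 months and -0.89 at 6 months, beside medians of 0 over all genes. With the GC trend subtracted, 1 of the 10 was more than 2-fold lower at 2 months (Map3k15; 11.2% of all genes lower, 14.6% higher) and 1 lower and 1 higher at 6 months (Map2k6 and Map3k6; 12.8% and 13.7%). The same subtraction moved the share of higher genes among all genes past 2-fold from 43.4% to 56.6% at 2 months and from 40.5% to 51.7% at 6 months. Between the controls, 6 over 2 months, 1 of the 10 was more than 2-fold lower (Map3k6) and 0 higher, where 4.65% of 15132 genes were lower and 9.01% higher.

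**Figure D4:**
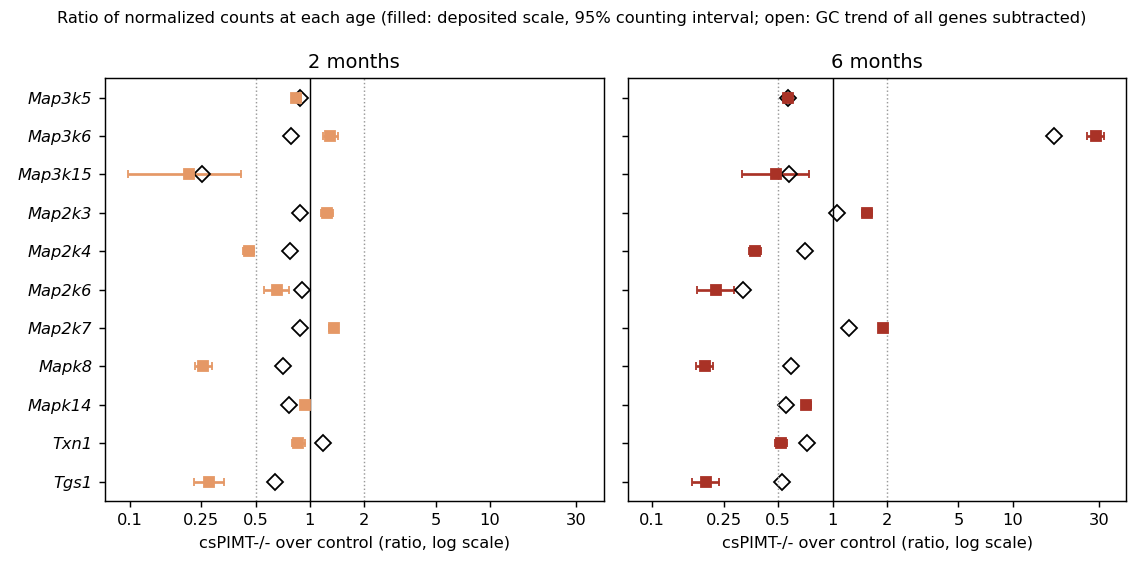
Ratio of normalized counts, csPIMT-/- over control (horizontal axes, log scale), at 2 months (left) and 6 months (right) for the 10 stress kinase genes and Tgs1, 1 pooled library a group. Filled squares with 95% counting intervals are on the deposited scale and open diamonds have the GC trend of all genes subtracted; at 6 months Map3k6 moves from 28.8 to 17 and Mapk8 from 0.195 to 0.592.

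The genotypes were tested over both ages in a limma fit of log2(normalized count + 1) on genotype and age across the 4 libraries, which leaves 1 residual degree of freedom and treats the ages as the only replication. Of the 9 genes other than Map3k6, 2 passed an adjusted p of 0.05 as lower and 0 as higher, where 17.5% of the 14847 genes tested passed as lower and 11% as higher. Mapk8 fell by 2.16 on the log2 scale (SE 0.247, limma with Benjamini-Hochberg adjustment, adjusted p = 0.0163) and Map2k4 fell by 1.28 (SE 0.222, adjusted p = 0.0222), both lower in 2 of 2 csPIMT-/- libraries. Both calls were lost with the GC trend subtracted, at adjusted p = 0.202 for Mapk8 and 0.28 for Map2k4, in a limma fit that called 0 of 13469 genes while 3246 of them had an unadjusted p under 0.05. The log2 differences of the other genes were 0.69 for Map2k7 (adjusted p = 0.0776), -1.37 for Map2k6 (0.0821), -1.58 for Map3k15 (0.108), -0.54 for Map3k5 (0.148), 0.48 for Map2k3 (0.156), -0.58 for Txn1 (0.165) and -0.29 for Mapk14 (0.346), none of which passed. The 6-month libraries that chose Map3k6 are part of this fit, and no test is given for it.

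The other JNK and p38 isoforms were read for comparison. Mapk9 (JNK2) stood at 2285 normalized counts in the 2-month control, 1012 in the 2-month csPIMT-/-, 2279 in the 6-month control and 931 in the 6-month csPIMT-/- library, and passed as lower in the limma fit (log2 difference -1.23, SE 0.216, adjusted p = 0.0222). Mapk10 (JNK3) stood at 754, 334, 950 and 150 and also passed as lower (-1.91, SE 0.432, adjusted p = 0.0341). All 3 JNK genes were thus lower in both csPIMT-/- libraries, and Mapk8 took 38.9% and 40.4% of their reads in the controls and 26.9% and 28.3% in the csPIMT-/- libraries at 2 and 6 months. Mapk12 (p38γ, the isoform abundant in striated muscle) stood at 948, 2696, 1510 and 3454 and passed as higher (1.35, SE 0.219, adjusted p = 0.0199). Mapk14 took 73.8% of the reads on the 4 p38 genes in the 2-month control, 49.6% in the 2-month csPIMT-/-, 63.2% in the 6-month control and 36.1% in the 6-month csPIMT-/- library, and Mapk12 took 21.5%, 44.0%, 31.8% and 58.1%. With the GC trend subtracted Mapk12 was at 1.93 and 1.52 times control, Mapk9 at 0.699 and 0.695, and Mapk10 at 0.713 and 0.275. Of this list of 5, 4 were tested, with 2 lower and 1 higher (17.5% and 11% of all genes tested). Mapk11 (p38β) stood at 1.78 and 1.44 times control, or 1.13 and 0.905 with the GC trend subtracted.

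No other MAP3K listed had a 6-month ratio above 4.38. Of 14, 4 were more than 2-fold lower and 1 higher at 2 months (22.5% and 17.3% of all genes), and 4 lower and 2 higher at 6 months (24.9% and 16.9%), with median log2 ratios of -0.18 and -0.17. In the limma fit 4 passed as lower and 0 as higher (17.5% and 11% of all genes tested). Taok1 (TAO1), a kinase upstream of p38, was at 0.232 and 0.218 of control, Map3k2 (MEKK2) at 0.352 and 0.342 and Map3k7 (TAK1, which relays TGF-β and cytokine signals) at 0.339 and 0.478, and with the GC trend subtracted these were 0.611 and 0.638, 1.03 and 1.08, and 0.567 and 0.883. Map3k1 (MEKK1) was the fourth, at 0.540 and 0.605. The highest ratio in the list at 6 months was that of Map3k9 (MLK1), 4.38 (2.53 to 7.99), or 2.61 with the GC trend subtracted, on 15.0 and 65.5 normalized counts.

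Of the 16 listed genes that bind or regulate ASK1, 1 was more than 2-fold lower and 0 higher at 2 months (22.5% and 17.3% of all genes), and 1 lower and 1 higher at 6 months (24.9% and 16.9%), with median log2 ratios of 0.04 and 0.23. Txnip, the thioredoxin-interacting protein, stood at 22923 normalized counts in the 2-month control, 38495 in the 2-month csPIMT-/-, 24417 in the 6-month control and 72436 in the 6-month csPIMT-/- library, and passed as higher in the limma fit (log2 difference 1.16, SE 0.292, adjusted p = 0.0424). Its ratios of 1.68 and 2.97 became 2.06 and 3.61 with the GC trend subtracted, further from 1 at both ages. The 14-3-3 genes Ywhae and Ywhab, whose proteins bind phosphorylated ASK1, passed as lower, at 0.472 and 0.513 and at 0.536 and 0.529 of control, and with the GC trend subtracted they were at 0.897 and 1.11 and at 0.717 and 0.720. Txn2, the mitochondrial thioredoxin, was at 1.24 and 1.32 times control, or 0.930 and 0.945, on the other side of 1, with the GC trend subtracted.

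Among 13 scaffolds and phosphatases, 2 were more than 2-fold lower and 2 higher at each age (22.5% and 17.3% of all genes at 2 months, 24.9% and 16.9% at 6 months), with median log2 ratios of -0.33 and 0.33. Dusp4, a nuclear phosphatase of MAP kinases, stood at 113 normalized counts in the 2-month control, 324 in the 2-month csPIMT-/-, 117 in the 6-month control and 936 in the 6-month csPIMT-/- library and passed as higher (log2 difference 2.25, SE 0.460, adjusted p = 0.0284). It was at 2.86 and 8 times control, and at 1.86 and 5.16 with the GC trend subtracted. Spag9 (JIP4, a scaffold of the JNK and p38 pathways) passed as lower at 0.319 and 0.451 of control, and Ppm1b, a phosphatase of TAK1, at 0.479 and 0.610, but with the GC trend subtracted Spag9 was at 0.593 and 0.953 and Ppm1b at 0.839 and 1.20. Dusp1, the phosphatase induced early in stress, was at 0.964 and 1.40, or 0.662 and 0.934 with the GC trend subtracted.

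Of 17 listed targets of JNK and p38, 4 were more than 2-fold lower and 4 higher at 2 months (22.5% and 17.3% of all genes), and 5 lower and 4 higher at 6 months (24.9% and 16.9%). Their median log2 ratios were 0.36 and 0.09, and in the limma fit 4 passed as lower and 4 as higher (17.5% and 11% of all genes tested). Those higher were Mknk2 (an eIF4E kinase, 2.40 and 3.95 times control), Rps6ka4 (MSK2, 2.60 and 2.40), Hspb1 (a small heat shock protein, 2.30 and 3.55) and Jund (JunD, 1.76 and 2.88). Those lower were the transcription factors Mef2a (0.350 and 0.356), Mef2c (0.310 and 0.364) and Atf2 (0.447 and 0.355) and the cell death gene Bcl2l11 (BIM, 0.418 and 0.482). The 4 genes higher had transcripts of 60.3 to 67.1% G or C and the 4 lower of 40.5 to 48%, and with the GC trend subtracted no gene of any of these lists passed the limma fit. The same subtraction put Mknk2 at 1.44 and 2.30, Hspb1 at 1.36 and 2.03, Mef2c at 0.799 and 1.05 and Atf2 at 1.18 and 1.04, which is the other side of 1 for Atf2 at both ages and for Mef2c at 6 months. Jund was then at 0.99 and 1.65, just below 1 at 2 months. Rps6ka4 (1.56 and 1.40), Mef2a (0.803 and 0.934) and Bcl2l11 (0.524 and 0.604) kept their side of 1. Jun was at 1.02 and 1.31 times control, or 0.679 and 0.855, below 1 at both ages, with the GC trend subtracted.

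**Figure D5:**
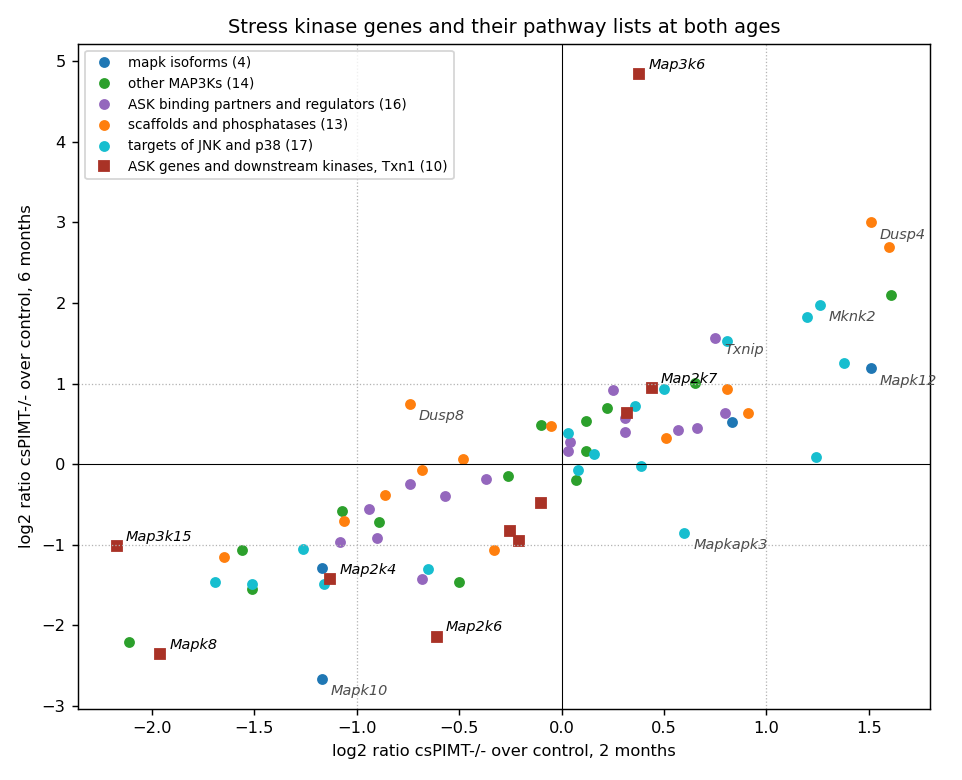
Log2 ratio of csPIMT-/- over control at 2 months (horizontal axis) and 6 months (vertical axis) for the 10 stress kinase genes (red squares) and the genes of the pathway lists (coloured circles, number plotted in brackets), with dotted lines at 2-fold. Map3k6 lies alone at 0.38 and 4.84, and Mapk8 at -1.96 and -2.36 sits at the lower left.

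The genes whose levels over the 4 libraries were closest in pattern to Map3k6 were sought among 12822 genes with at least 100 reads in a library, by the root mean square difference of the centred log2 values, a description over 4 libraries. They were Alx4, a homeobox transcription factor (0.207), Sphk1, sphingosine kinase (0.285), Ckmt1, a mitochondrial creatine kinase (0.393), Serpina3m, a serine protease inhibitor (0.416), and Maff, a small Maf protein (0.419). Sphk1 stood at 190 normalized counts in the 2-month control, 327 in the 2-month csPIMT-/-, 135 in the 6-month control and 3227 in the 6-month csPIMT-/- library. Maff stood at 393, 579, 298 and 3941 and Alx4 at 29.4, 56.7, 13.2 and 381. All 5 were at their lowest in the 6-month control and at their highest in the 6-month csPIMT-/- library. Their ratios at 6 months lay between 13.2 and 28.9. The search picked them for the pattern of Map3k6 in these libraries, so this likeness follows from the choice and is not a result.

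Of 6 annotated genes within 50 kb of Map3k6 on chromosome 4, Wasf2 was at 0.836 and 1.89 times control at 2 and 6 months. Tmem222 was at 2.41 and 2.47 and Wdtc1 at 1.71 and 1.38. With the GC trend subtracted, Wasf2 was at 0.59 and 1.29, Tmem222 at 1.53 and 1.55 and Wdtc1 at 1.03 and 0.814. Sytl1, which lies 161 bases beyond Map3k6 on the opposite strand, stood at 15.6, 43.2, 10.6 and 11.4 normalized counts in the 2-month control, 2-month csPIMT-/-, 6-month control and 6-month csPIMT-/- libraries. Cd164l2 had 4, 9, 0 and 33 reads in the same order, and so was, like Map3k6, lowest in the 6-month control and highest in the 6-month csPIMT-/- library, on few reads. Gpr3 had at most 8 reads in any library.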

How the data were processed

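RNA of 5 pooled hearts per group was enriched for mRNA, made into directional TruSeq libraries and sequenced as single-end 50 base reads. Per the labels and the study's methods, the authors trimmed the reads, removed ribosomal reads, aligned to mm10 with STAR, counted with HTSeq 0.6.1p1 on a UCSC annotation and normalized with DESeq2 (version not given in the sources used here). The deposited values are normalized counts, a signal equal to reads times 1 constant per library. Dividing by that constant gave whole reads for 100.0% of values (tolerance 0.001 reads).

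The genes and lists were chosen with earlier results of these data known. Ratios set each csPIMT-/- library against its age-matched control, for genes reaching 10 reads in either library, with 0.5 reads added for log2 values, and a ratio of 2 or 0.5 as the limit. GC content is that of the longest coding GENCODE M21 transcript (GRCm38), and its trend was a lowess (span 0.3). The fit over both ages used limma 3.58.1 with a mean trend on genes with at least 10 normalized counts in 2 libraries. On the recovered reads, edgeR 4.0.16 (quasi-likelihood) called 2521 genes lower and 1637 higher, and DESeq2 1.42.0 called 2988 and 2190. The scripts were tested on simulated data. Other genes named are those past 2-fold the same way at both ages with at least 100 reads (up to 4 per list), the 5 most like Map3k6 and the neighbours within 50 kb. Hspb1, Atf2, Bcl2l11, Map3k1, Map3k9, Mapk11, Jun, Jund, Txnip, Txn2, Ywhae, Ywhab, Ppm1b, Dusp1 and Pdha1 were added after their values were seen. Of the cell type markers, Cidea, Ptprc, Kdr, Kcnj3, Ager, Scgb1a1, Tnni3, Actc1 and Myl3 were likewise named after their values were seen. So were Tie1, Cldn5, Egfl7, Pdgfra, Dcn, Col1a2 and Tcf21. Alternatives were the scaling, the control used, the read minimum, the pseudocount, the GC trend and the test.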

Additional observations from a re-analysis of the deposited data

Results flagged for a closer look

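Dusp8, Mapkapk3 and Taok2 stood on opposite sides of their control at the 2 ages, and the difference between the ages was not tested, since each age holds 1 library per genotype. Dusp8, a phosphatase of JNK and p38, was at 0.598 of control at 2 months (0.554 to 0.645) and at 1.68 at 6 months (1.55 to 1.82), and its control stood at 1972 normalized counts at 2 months and 901 at 6 months. Mapkapk3 (MK3), a kinase activated by p38, was at 1.52 at 2 months (1.42 to 1.62) and at 0.554 at 6 months (0.516 to 0.595). Taok2, a MAP3K, was at 0.936 (0.896 to 0.978) and at 1.40 (1.34 to 1.46). With the GC trend of all genes subtracted, Mapkapk3 was at 1.04, close to its control, and at 0.370. Taok2 was then on the same side at both ages (0.591 and 0.874), and Dusp8 was at 0.364 and 1.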

How the results depend on the processing

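No paired analysis was possible because each group is 1 pooled library and the labels give no replicate numbers. Age was a term of the fit over both ages. Of 132 alternative values of the ratios of the 10 genes and Tgs1, 96 stayed within the counting interval, and of 40 alternative list medians 27 moved by less than 0.1 on the log2 scale. With the GC trend subtracted, genes more than 2-fold lower went from 3405 to 1537 at 2 months and from 3794 to 1763 at 6 months, and those of the 10 went from 3 to 1 and from 4 to 1. Against the control of the other age, 1 of the 10 was more than 2-fold higher at 2 months in place of 0. Genes more than 2-fold higher at 2 months went from 2616 to 1724 with a minimum of 100 reads and to 1687 where the whole interval had to pass, and at 6 months from 2579 to 1686 with the whole interval. In the limma fit over both ages the 2595 lower and 1637 higher genes went to 0 and 0 without the mean trend (5965 genes at an unadjusted p under 0.05) and to 0 and 0 with the GC trend subtracted (3246), where Map2k3 turned from 0.48 to -0.03 on the log2 scale (adjusted p = 0.935). Mapk8 and Map2k4 had adjusted p = 0.0654 and 0.0748 without the mean trend, and 1.23e-08 and 0.000712 with DESeq2, which also called Map2k6 (adjusted p = 0.0251). The cause of these shifts was not tested. No scaling moved the median of all genes by more than 0.1 on the log2 scale. Map3k15, with 10 to 80 reads a library, is the gene whose ratios depth limits.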
